A study of Mus musculus with 2 samples.

Results

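Genes for proteins that build ribosomes and small nucleolar ribonucleoproteins (snoRNPs) were followed in mouse intestinal subepithelial myofibroblasts, the contractile and matrix-forming stromal cells beneath the gut epithelium. The set was a list of 35 nucleolar protein genes, made up of 7 genes of the snoRNP core (Fbl, Nop56, Nop58, Dkc1, Nhp2, Nop10 and Gar1) and 28 other assembly factors. Of these, 33 had a probeset that the platform annotation paired with them alone, out of 22180 genes named in this way. The probesets of Fbl and Tsr1 were each paired with a further gene, so no value is given for either. The cells came from the small bowel of wild-type BALB/c animals, and the 2 groups shared that strain and carried no engineered allele in the labels. Cultures of one group had no addition, and those of the other were exposed for 1 day to 5 mg/ml of homogenised intestinal eosinophils. Each group is 1 array of RNA pooled from 3 cultures, so there was no replicate, no error and no test between the groups. Every difference below describes these 2 pools, and the number of arrays limits the precision.

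Ribosomes are made in the nucleolus. RNA polymerase I transcribes the precursor of the ribosomal RNAs, the small-subunit processome and the large-subunit factors fold and cut it, and snoRNPs modify its bases and sugars. Each snoRNP holds a guide RNA and a core of proteins: fibrillarin (Fbl), Nop56 and Nop58 sit on box C/D RNAs and methylate ribose, while dyskerin (Dkc1), Nhp2, Nop10 and Gar1 sit on box H/ACA RNAs and turn uridine into pseudouridine. The genes of this pathway are known as targets of the transcription factor Myc and are usually raised in growing cells.

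The arrays gave log2 values after RMA, a method that sets both arrays to one distribution, so that a difference is read against the whole array. An overall change in RNA content would not show, and in bulk RNA fewer cells of a type and less RNA per cell cannot be told apart. The arrays measured messenger RNA of the factors, not ribosomal RNA or ribosomes. A background level of 5.58 on the non-stimulated and 5.57 on the stimulated array was taken from the 1407 olfactory and vomeronasal receptor probesets, whose genes fibroblasts are not known to use. On either array or both, 14068 of all genes exceeded it. One label field gives eosinophils as the source of the cells, whereas the protocols give myofibroblasts. All 8 fibroblast markers were above background on both arrays, with medians of 11.55 and 11.55. Past 1.2-fold were Pdgfra, 1.47-fold higher, and Acta2, 1.22-fold lower. Of 8 eosinophil markers 2 were above background without homogenate and 1 with it. These were Alox15 (5.68 and 5.87) on both arrays and Cebpe (5.91 and 5.46) without homogenate only. Epx and Prg2, which encode eosinophil granule proteins, were below background on both. Of other cell types, 3 of 6 macrophage, 3 of 5 pan-leukocyte and 3 of 6 epithelial markers were above background on each array, the highest of them the pan-leukocyte marker Cd53 at 9.73 and 9.56. Of 4 lymphocyte markers none was above it without homogenate and 1 with it, Cd4 at 5.26 and 5.58. Their part in the values below was not tested. The markers of dividing cells, all 8 above background, had a median difference of 0.076.

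All 33 genes were above background on both arrays, and 31 of them differed by less than 1.2-fold. Differences are log2 values, with the non-stimulated array subtracted from the stimulated one. Gar1 was the only one of the 33 that was higher by 1.2-fold or more, 3.03% of them against 6.11% of the 14068 genes above background. Polr1b, which encodes the second-largest subunit of RNA polymerase I, was the only one lower by 1.2-fold or more, again 3.03% against 6.91%. At 1.1-fold, 4 of the 33 were higher (12.1%, against 17.7% of all genes) and 2 lower (6.06%, against 18.6%). None reached 1.5-fold, a size passed upward by 0.796% and downward by 0.64% of all genes, and none reached 2-fold, passed by 0.192% and 0.0426%. The shares are therefore below those of all genes, but bright probesets differ less between the arrays. With the genes above background put into 4 classes of equal size by brightness (the mean of both arrays), 18 of the 33 lay in the brightest class, 11 in the next, 4 in the third and none in the dimmest. In the brightest class 2.96% of genes were higher by 1.2-fold or more and 2.42% lower, and in the next 4.18% and 3.07%. In the third class, which holds Polr1b, they were 6.40% and 8.05%. The share among the 33 was thus near that of genes of like brightness.

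**Figure D1:**
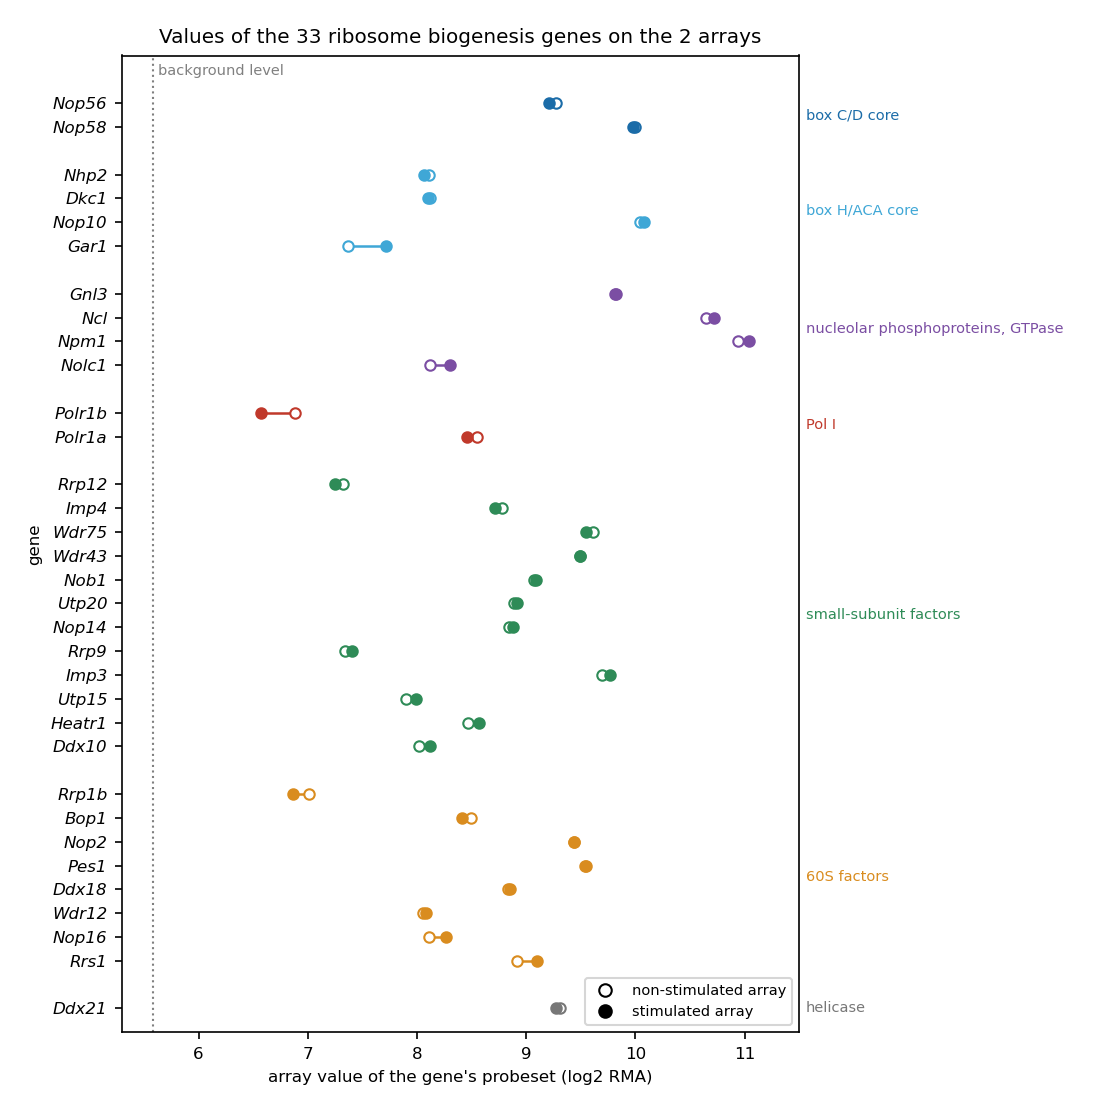
Array values (log2 RMA, horizontal axis) of the 33 genes, 1 row per gene, grouped by role; open circles are the non-stimulated and filled circles the stimulated array, and the dotted line is the background level of 5.58. Values are compared within a row only, since brightness also depends on the probes; only Gar1 (7.37 to 7.71) and Polr1b (6.88 to 6.57) are more than 1.2-fold apart.

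The median difference of the 33 genes was 0.013, with a median size (sign ignored) of 0.067, beside a median of 0.0016 and a median size of 0.099 over all genes above background. Of the 33, 20 were higher (60.6%, against 50.2% of all genes) and 13 lower (39.4%, against 48.2%). Bright genes as a whole leaned upward, with 56.98% of the brightest class higher. With differences centred on a lowess trend over brightness, 16 of the 33 were higher and 17 lower, and their median was -0.0037. The direction of the whole group thus flips with this centring, and no direction is given for it.

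**Figure D2:**
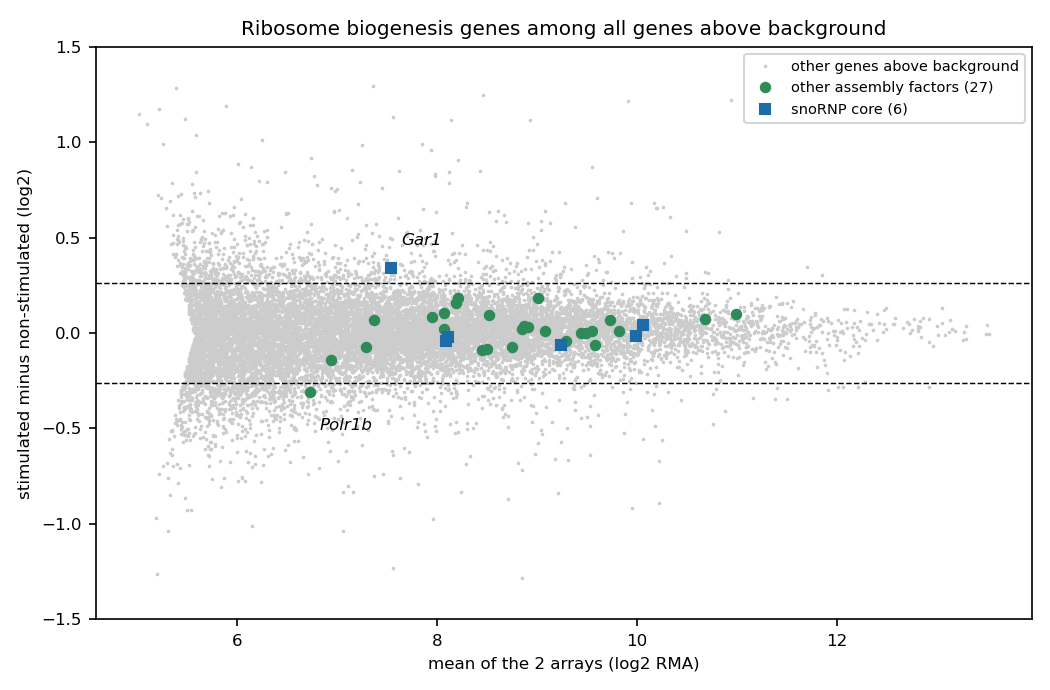
Difference between the arrays (stimulated minus non-stimulated, log2, vertical axis) against the mean of both arrays (log2 RMA, horizontal axis) for 14068 genes above background, of which 12 lie beyond the axis at 1.5. Squares are the 6 measured genes of the snoRNP core, circles the 27 other assembly factors and dashed lines 1.2-fold; Gar1 and Polr1b alone lie outside the dashed lines.

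Of the snoRNP core, 6 genes were measured, and 5 of them differed by between -0.061 and 0.042. On box C/D particles, Nop56 read 9.27 on the non-stimulated and 9.21 on the stimulated array, and Nop58 read 9.99 and 9.98. These paralogous scaffold proteins both bind the guide RNA and fibrillarin, and both genes were marginally lower, with differences of -0.061 and -0.017. On box H/ACA particles, the pseudouridine synthase gene Dkc1 read 8.12 and 8.10, Nhp2 8.11 and 8.07 and the small stabilising protein gene Nop10 10.04 and 10.08. Of these 3, Dkc1 and Nhp2 were lower and Nop10 higher.

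Gar1 stood apart from its partners. Its product joins the H/ACA particle last, in exchange for the assembly factor Naf1. Gar1 read 7.37 on the non-stimulated and 7.71 on the stimulated array, a difference of 0.34 or 1.27-fold. It lay at percentile 96.7 of the differences of all genes above background, and just outside the central 95% of genes in its brightness class, from -0.29 to 0.32. It was the only one of the 33 outside the range of its class. By construction each range holds 95% of its class, so 1 of 33 outside it is no excess. The other 3 proteins of the same particle are present with Gar1 in equal copies in the mature complex, and their genes read between -0.042 and 0.042. Gar1 had 1 probeset, so no second reading of it exists on these arrays.

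As a group the core had a median of -0.019 and the 27 other assembly factors a median of 0.019. The core minus the other factors was therefore -0.038. The median size over all genes, 0.099, is of single genes and not of group medians, so it does not measure this contrast. With means in place of medians the order turned, with 0.040 for the core and 0.015 for the other factors, a difference of 0.026 that rests on Gar1.

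Both polymerase I genes of the list were lower on the stimulated array, where 48.2% of all genes were lower. Of 10 other polymerase I subunits and factors, described further below, 7 were higher and 3 lower. Polr1a, which encodes the largest catalytic subunit, differed by -0.084. Polr1b read 6.88 and 6.57, a difference of -0.31 or 1.24-fold lower, at percentile 4.90 of all genes. The value lay inside the central 95% of genes in its brightness class, from -0.39 to 0.36. The proteins of both genes form the active centre of the polymerase together.

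The promoters of Gar1 and Polr1b are shown because these were the only 2 of the 33 genes past 1.2-fold, in opposite directions. The sequences are from RefSeq (GRCm38.p6) and run from 250 bases before to 50 bases after the annotated start, 5′ to 3′ along the gene; capitals mark the letters CCGGAAG or their reverse complement, the core bound by transcription factors of the ETS family. Searched on both strands, Gar1 held 1 such match and Polr1b none, and neither held the E-box CACGTG. Gar1 had a GC content of 63.0% with 30 CpG dinucleotides, and Polr1b one of 52.7% with 13.
Gar1, chr3:129831347-129831646, minus strand: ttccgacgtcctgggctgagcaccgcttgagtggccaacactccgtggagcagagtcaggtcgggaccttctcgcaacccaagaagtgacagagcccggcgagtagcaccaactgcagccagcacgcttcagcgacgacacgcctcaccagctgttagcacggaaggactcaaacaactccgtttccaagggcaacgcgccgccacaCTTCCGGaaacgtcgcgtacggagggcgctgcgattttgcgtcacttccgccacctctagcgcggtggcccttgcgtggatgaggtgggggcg
Polr1b, chr2:129100746-129101045, plus strand: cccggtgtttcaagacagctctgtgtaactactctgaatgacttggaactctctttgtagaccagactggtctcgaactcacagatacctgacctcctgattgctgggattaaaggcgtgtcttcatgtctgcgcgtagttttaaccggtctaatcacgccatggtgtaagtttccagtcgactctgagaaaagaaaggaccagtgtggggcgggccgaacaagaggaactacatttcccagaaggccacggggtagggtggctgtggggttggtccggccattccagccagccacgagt

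The E-box CACGTG is the sequence that Myc binds with its partner Max. It reads the same on both strands and was found in the promoters of 6 of the 30 genes of the list that had a promoter in the RefSeq table. Fbl, Npm1, Rrp12, Bop1 and Rrs1 had no entry. Counted by promoter, 18.2% of the 33 promoters of these genes held it (Wdr12 had 3 promoters listed and Rrp1b 2), against 7.15% of all 32851 promoters and 9.64% of promoters of genes above background. The 6 matches are shown, with the E-box in capitals and up to 10 bases on each side, to let the flanks be compared; none overlapped an ETS core.
Imp4, chr1:34439698-34439723, plus strand: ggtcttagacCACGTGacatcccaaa
Nop2, chr6:125131813-125131838, plus strand: gtccctggatCACGTGtgttccggtg
Pes1, chr11:3963967-3963992, plus strand: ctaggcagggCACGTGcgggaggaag
Tsr1, chr11:74898094-74898119, plus strand: acttggtgcaCACGTGgactgcagaa
Utp20, chr10:88826765-88826787, minus strand: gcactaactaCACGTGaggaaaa
Wdr43, chr17:71616222-71616247, plus strand: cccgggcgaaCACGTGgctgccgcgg

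Counted from the start site, the first base of the match lay between position -121 (Imp4) and position 38 (Utp20). Of the genes that carry them, 5 were measured, and they differed by between -0.071 (Imp4) and 0.029 (Utp20), with a median of 0.0018. The 24 measured genes with a listed promoter and no E-box had a median of 0.021. Myc itself read 8.93 on the non-stimulated and 8.82 on the stimulated array, a difference of -0.11, and Max read 8.70 and 8.60. A match is a description of these letters in this window and shows no binding.

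The 4 genes of nucleolar phosphoproteins and of a nucleolar GTPase were all higher by small amounts, with a median of 0.087. Of all genes 50.2% were higher, and of the brightest class 56.98%. Nucleolin (Ncl) and nucleophosmin (Npm1) are RNA-binding proteins and histone chaperones of the nucleolus. Ncl differed by 0.073, and Npm1 read 10.94 and 11.04. Nolc1 encodes a phosphoprotein that escorts snoRNPs through the nucleolus and Cajal bodies, and it read 8.12 and 8.31, a difference of 0.19. Gnl3, the gene of the GTPase nucleostemin, read 9.81 and 9.82, a difference of 0.0092 that became -0.0072 with the lowess centring. All 4 values lay inside the central 95% of their brightness classes.

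Small-subunit factors kept within a narrow range, from -0.074 to 0.10. Of 12 measured, 9 were above 0 and 3 below it, where 50.2% of all genes and 56.98% of the brightest class were higher. Their median was 0.033, or 0.017 with the lowess centring. The helicase gene Ddx10 read 8.02 and 8.12, and Heatr1, part of the subcomplex that opens assembly on the nascent precursor, read 8.47 and 8.56. The further genes of that subcomplex did not share a direction: Utp15 differed by 0.087 and Wdr75 by -0.060, while Wdr43 read 9.49 on both arrays, a difference of 0.0018 that became -0.015 with the lowess centring. Imp3 and Imp4 bring the U3 snoRNA onto the precursor as parts of one complex; Imp3 read 9.70 and 9.77, and Imp4 differed by -0.071. Rrp9, the protein particular to the U3 particle, differed by 0.067. Of the structural factors, Utp20 differed by 0.029 and Nop14 by 0.038. Of factors that act late, the export factor gene Rrp12 differed by -0.074, and Nob1, the nuclease that makes the final cut in the small-subunit RNA, read 9.07 and 9.09, a difference of 0.013 that became -0.0037 with the lowess centring.

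Large-subunit factors ran from -0.14 to 0.18, with a median of 0.015 that became -0.0011 with the lowess centring. Of 8 measured, 5 were higher and 3 lower, beside 50.2% and 48.2% of all genes. Rrs1, needed to place the small ribosomal RNA of the large subunit, read 8.92 and 9.10. Nop16, a nucleolar factor of early large-subunit particles, read 8.11 and 8.26. Rrp1b, also known as a partner of a protein phosphatase in the nucleolus, had the opposite sign, at 7.01 and 6.87, a difference of -0.14.

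The PeBoW complex, which processes the precursor of the large-subunit RNA, is made by Pes1, Bop1 and Wdr12. Pes1 read 9.54 and 9.55, Bop1 read 8.50 and 8.41, and Wdr12 differed by 0.023. Bop1 thus differed by -0.087, or -0.098 with the lowess centring, while Pes1 differed by 0.011, or -0.0053 with that centring. Nop2, an RNA methyltransferase, differed by -0.00041. The helicase genes Ddx18 (8.84 and 8.85) and Ddx21 (9.31 and 9.27), of which the latter acts in both transcription and processing of ribosomal RNA, lay on either side of 0.

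**Figure D3:**
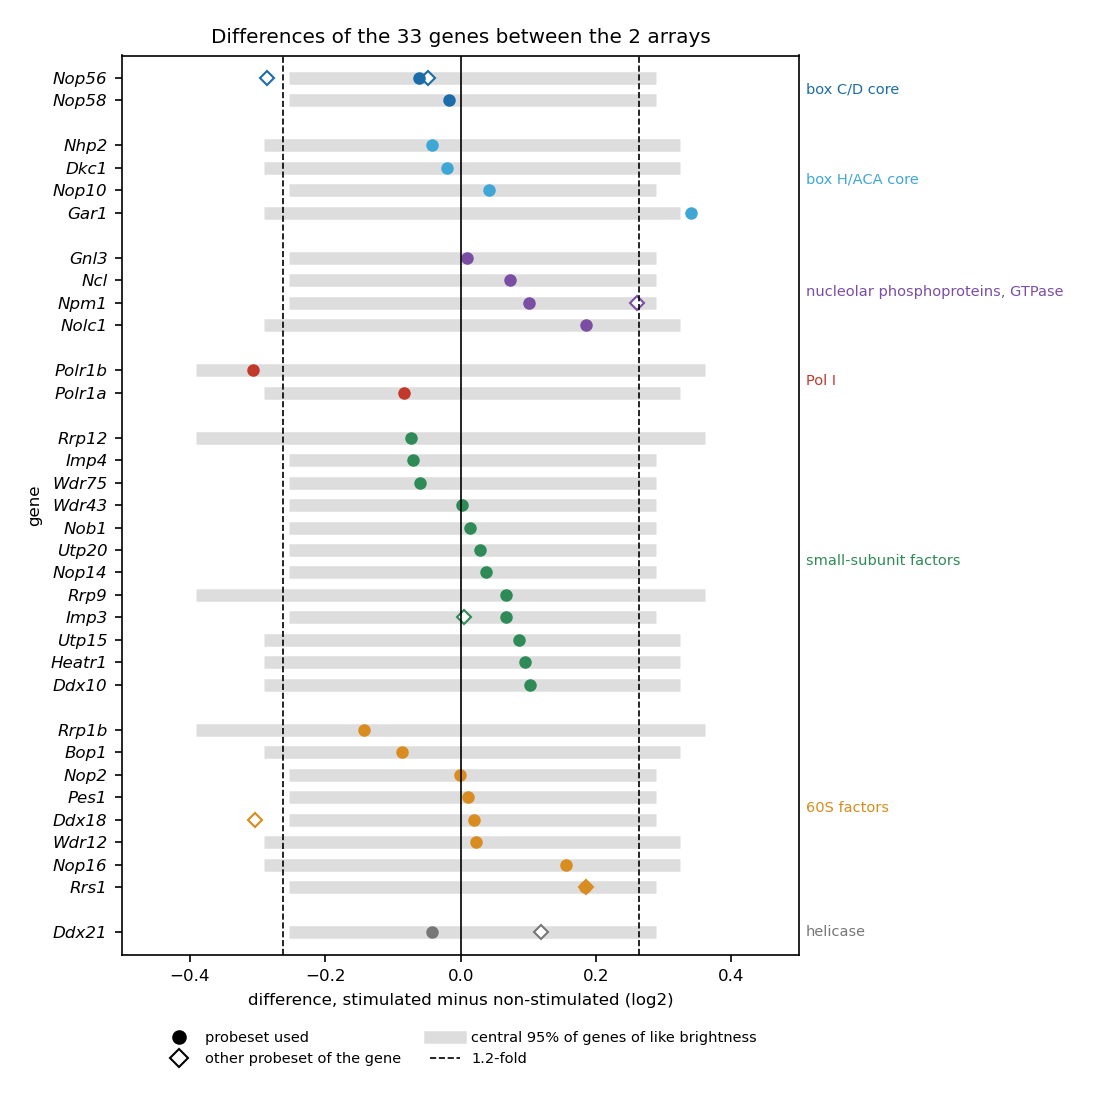
Difference between the arrays (stimulated minus non-stimulated, log2, horizontal axis) for each of the 33 genes, in rows grouped by role. Filled circles are the probeset used, open diamonds other probesets of the same gene, grey bars the central 95% of genes in the same brightness class and dashed lines 1.2-fold; only the filled circle of Gar1 lies outside its grey bar.

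For 6 of the 33 genes a second reading exists, because the array carried further probesets for them alone, 7 in all. The readings of Rrs1 were close, at 0.18 and 0.19, and those of Imp3 were 0.068 and 0.0042, the latter from a probeset that read 9.19 on both arrays. Npm1 was higher on both of its probesets, by 0.10 and 0.26. For Nop56 the 3 probesets gave -0.061, -0.29 and -0.048, all lower, and the middle one (8.70 and 8.41) was past 1.2-fold. Ddx18 and Ddx21 changed sign between probesets, with 0.019 and -0.30 for Ddx18 and -0.042 and 0.12 for Ddx21.

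The gap between the readings of one gene had a median of 0.16 over these 6 genes and of 0.14 over 598 genes with several probesets above background. Of the 33 genes, 28 differed by less than the median gap over those 598 genes. Most of all genes above background did so too, since the median size of their differences was 0.099. Probesets of one gene can read different transcripts or exons, so the gap is not a measurement error alone. Counting a gene when any of its probesets passed 1.2-fold left Gar1 as the only higher gene (3.03%, against 6.63% of all genes counted in this way) and gave 3 lower genes, Polr1b, Nop56 and Ddx18 (9.09%, against 7.71%). A gene with more probesets has more chances to pass under this rule. Several probesets were present for 6 of the 33 genes, against 1082 of the 22180 named genes.

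Several of the genes carry snoRNAs inside them, the guide RNAs of the same particles whose proteins they encode or assist. By the RefSeq annotation, 19 snoRNAs lay inside the spans of the listed genes. Of these, 9 in 5 measured genes had a probeset of their own above background. On the stimulated array 7 of the 9 were lower, with a median of -0.19, where 48.2% of all genes were lower. The difference was below that of the host gene for 8 of the 9, with a median of snoRNA minus host of -0.18. The median of the 5 host genes was 0.0018.

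Inside Wdr43, Snord53 read 8.21 on the non-stimulated and 7.85 on the stimulated array, 1.28-fold lower, and Snord92 read 6.39 and 6.19. Inside Gnl3, Snord69 read 10.93 and 10.60, 1.25-fold lower, and Snord19 read 7.26 and 7.05. The hosts Wdr43 and Gnl3 differed by 0.0018 and 0.0092. Inside Nop58, Snord70 and Snord11 differed by -0.19 and -0.14, and inside Nop56, Snord110 differed by -0.15. Ncl departed from this: Snord82 read 12.46 and 12.47, and Snora75, the one box H/ACA RNA of the 9, read 7.43 and 7.71, 1.22-fold higher. Inside Tsr1, whose own level was not measured here, Snord91a read 5.72 and 6.10, close to the background level. It was 1.30-fold higher, the largest upward difference among the 76 snoRNAs above background, and it is not among the 9, since its host has no value to set beside it.

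The other snoRNAs were mostly lower too, so this is not particular to those inside the listed genes. Of 66 snoRNAs above background that lay outside the listed genes, and so without Snord91a, 51 were lower, 20 of them by at least 1.2-fold, and none was higher by as much, with a median of -0.17. Among all genes above background, 6.91% were lower and 6.11% higher by at least 1.2-fold. With the lowess centring the median was -0.18 for the 9 and for the 66. A probeset inside an intron reads the snoRNA and the unspliced host RNA alike, and the arrays cannot tell them apart.

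**Figure D4:**
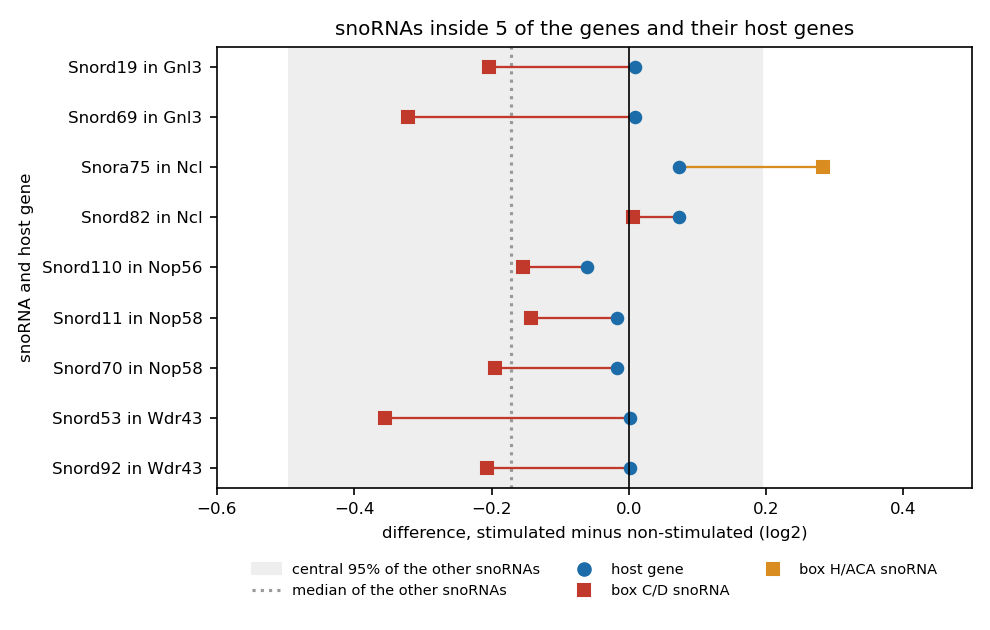
Differences between the arrays (stimulated minus non-stimulated, log2, horizontal axis) of 9 snoRNAs (squares) and of the genes in which they lie (circles), 1 row per snoRNA. The shaded band is the central 95% and the dotted line the median of 66 other snoRNAs, at -0.17; the square lies left of its circle in 8 of 9 rows.

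Other genes of the pathway differed by like amounts. Over 5 lists of other factors, 115 genes were above background, with a median of 0.022 and a median size of 0.063. Of these, 65 read higher and 49 lower, where 50.2% and 48.2% of all genes did. The size of 1.2-fold was passed by 3 upward and 1 downward, where 6.11% and 6.91% of all genes passed it. Small-subunit factors outside the set had a median of 0.0019 over 39 genes, or -0.0052 with the mean of a gene's probesets, between Dhx37 at -0.22 and Ddx47 at 0.20, with none past 1.2-fold. Large-subunit factors had a median of 0.024 over 43, with Ppan lowest at -0.23 and Rrp15, at 1.22-fold higher, the only one past 1.2-fold. The RNA exosome, which trims the precursors, had a median of -0.0084 over 12, from Dis3 at -0.13 to Exosc7 at 0.20.

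Other polymerase I subunits and factors, in contrast to Polr1a and Polr1b, had a median of 0.079 over 10 genes. Of these 10 genes, 7 were higher, beside 50.2% of all genes. With the background set at the 99th percentile, which leaves fewer genes, the median was 0.17. Polr1d, a subunit shared with RNA polymerase III, read 8.002 and 8.384, 1.30-fold higher, and Taf1a, part of the promoter-binding factor of polymerase I, read 6.58 and 6.88, 1.22-fold higher. Polr1e (-0.12) and Polr1c (-0.092) were lower. Polymerase I subunits therefore had no common direction on these arrays. Factors that assemble snoRNPs had a median of 0.068 over 11 genes, 8 of them higher, beside the same 50.2% of all genes. The ATPase gene Ruvbl1 differed by 0.19 and its adaptor gene Rpap3 by 0.16, while Znhit3, of the box C/D assembly path, read 6.43 and 6.14, 1.23-fold lower.

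Ribosomal protein genes encode proteins of the finished ribosome. They had a median of 0.013 over 55 genes, or -0.0041 with the mean of a gene's probesets. Their differences ran from Rpl34 at -0.34 to Rps29 at 0.21. Of the 55 genes, 3 were lower by 1.2-fold or more and none higher, where 6.91% and 6.11% of all genes were. The Myc network had a median of 0.016 over 9 genes, or -0.00034 with the lowess centring, with Myc and Max lowest and Mlx (0.23) and Mxi1 (0.21) highest. Of 14 genes of growth metabolism linked to Myc, 3 passed 1.2-fold upward and none downward, beside the same 6.11% and 6.91% of all genes, and the median was 0.047. Odc1, the rate-limiting enzyme of polyamine synthesis, read 8.76 and 9.40, 1.56-fold higher, and Nampt, an enzyme of NAD salvage, 1.27-fold higher. Cad (-0.16) and Srm (-0.10), of pyrimidine and spermidine synthesis, were lower.

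**Figure D5:**
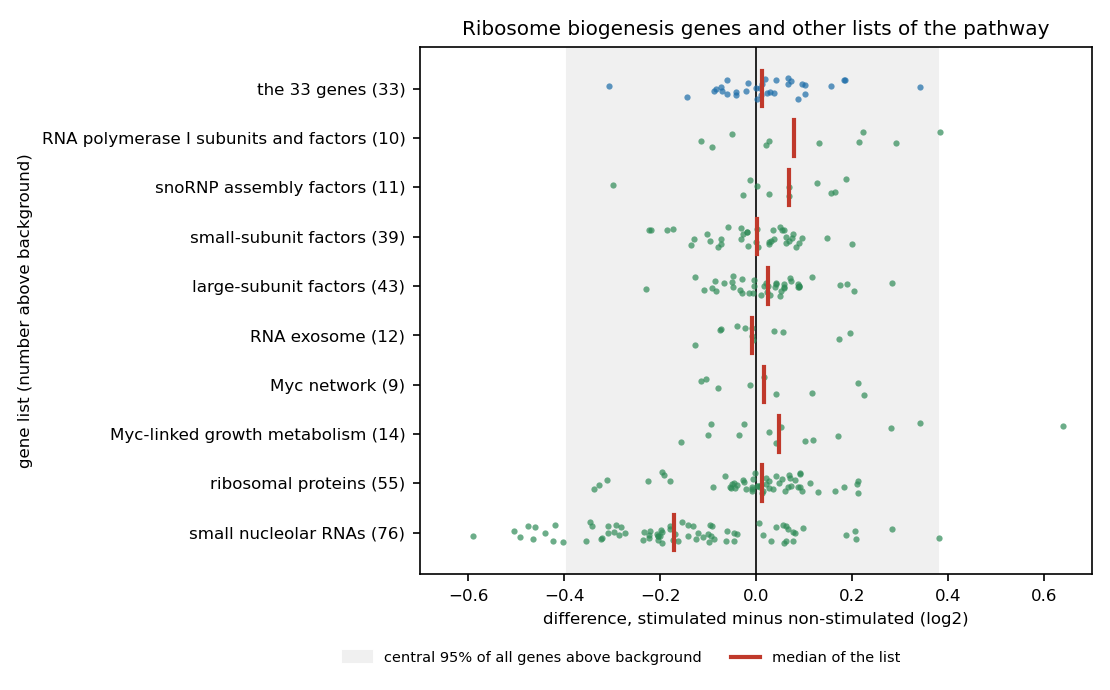
Differences between the arrays (stimulated minus non-stimulated, log2, horizontal axis) for the 33 genes and 9 other lists, 1 point per gene above background, with the number of genes in brackets. Red bars are medians and the shaded band is the central 95% of all genes above background, from -0.39 to 0.38; the medians of the protein lists lie between -0.0084 and 0.079 and that of the 76 snoRNAs at -0.17.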

How the data were processed

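RNA of mouse intestinal myofibroblasts was read on the GeneChip Mouse Gene 2.0 ST array, 1 array for each of 2 conditions, each from 3 pooled cultures. The authors deposited log2 values per probeset, made with Affymetrix Expression Console and RMA per the submitters' processing notes; the sources used here give neither versions nor the genome build. Of 41345 probesets, 23521 were paired with 1 gene by the platform annotation and used; current symbols came from RefSeq (GRCm38.p6). The brightest of a gene's probesets stood for it. A gene was above background when either array passed the 95th percentile of the receptor probesets. Differences were stimulated minus non-stimulated, and 1.2-fold was the size counted. With 1 array per condition, no test was made. The 4 brightness classes were equal sets by mean of both arrays. Alternatives were another background level or none, the mean of probesets, centring on the median or on a lowess trend (span 0.3), means, other folds, and the group without its largest member. Members and lists were chosen with earlier results of these data known. All 33 measured genes are named; both values were given for the core, the 10 largest differences, genes with several probesets and those whose sign changed. Of other lists, up to 2 genes at each end were eligible for naming. Scripts (Python 3.11.15, pandas 2.3.3, statsmodels 0.14.6) were tested on simulated data. snoRNAs were placed by the RefSeq spans, whose coordinates are those of that table's build, not of the array values.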

Additional observations from a re-analysis of the deposited data

How the results depend on the processing

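The median of the 33 genes stayed between -0.0037 and 0.019 over all alternatives run, that of the core between -0.030 and 0.040, that of the other factors between 0.0032 and 0.023, and the core minus the other factors between -0.042 and 0.026. The count of higher genes ran from 16 to 20. The counts past the fold followed the threshold: at 1.1-fold 4 genes were higher and 2 lower, and at 1.5-fold and at 2-fold 0 were higher and 0 lower. Without its largest member, Gar1, the count of genes at least 1.2-fold higher was 0 by construction, since Gar1 was the only one. With any probeset of a gene counted, chosen after the data were seen, 3 were lower. Gar1 and Polr1b, with 1 probeset each, kept their sign and size under both centrings. The centrings shifted the 33 genes by a median of only 0.013 (lowess) and 0.0016 (median), too little to change differences of that size. Of single genes, Nop56 (-0.29), Npm1 (0.26), Ddx18 (-0.30, and -0.14 for the mean of its probesets) and Ddx21 (0.12) moved by over 0.1 with another probeset; the cause was not tested. All 80 alternative medians of role groups and other lists moved by less than 0.1, the most being the polymerase I factors, at 0.17 with the 99th-percentile background. No paired analysis was possible because each condition has 1 array. No replicate could be left out. All 33 genes were above the 95th-percentile background on both arrays. Polr1b (6.88 and 6.57) lay near the 99th-percentile level of 6.80 and 6.65, above it on the non-stimulated and below it on the stimulated array.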

Other observations

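The promoters of the listed genes held the ETS core CCGGAAG in 7 of 30 genes (Ddx10, Gar1, Heatr1, Nhp2, Nolc1, Nop2 and Tsr1), or 21.2% of their promoters, against 15.3% of promoters of genes above background and 8.86% of all promoters. The differences of the 6 measured ones ran from -0.042 for Nhp2 to 0.34 for Gar1. The letters TATAAA were found in 2 of 30 genes, Dkc1 and Pes1, or 6.06% of their promoters, against 7.90% of promoters of genes above background and 13.6% of all promoters. The GC content of the promoters had a median of 56.3%, between 52.7% for all promoters and 60.3% for those of genes above background.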
